A study of Homo sapiens with 6 samples.

Results

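The 10 genes described here are early response genes: the zinc finger transcription factors EGR1, EGR2 and EGR3, the IER genes IER2, IER3 and IER5, the nuclear receptor NR4A1, the transcription factor SRF, and the pleckstrin homology domain genes PHLDA1 and PHLDA2. They were taken by symbol from the 16200 genes of the deposited table, where all 10 were listed, and all 10 passed the filter on low counts. The libraries hold poly(A)-enriched RNA of RBE, an established human cholangiocarcinoma (bile duct cancer) line, with 3 libraries labelled NC and 3 labelled sgKCNQ3. NC is taken as the control, and sgKCNQ3 as cells given a guide RNA against KCNQ3, a voltage-gated potassium channel subunit. No other treatment or time point is given, so these are levels in cells in culture and not a response to a measured stimulus. The sources used here do not say whether the guide worked with a nuclease or a repressor, or whether the cells were a single clone. No label states separate cultures for the libraries. The p-values therefore cover the spread among these 6 libraries alone, and that spread may be technical.

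Immediate early genes are transcribed within minutes of a growth factor or stress signal, without new protein synthesis. In the best known route, ERK phosphorylates ETS-family cofactors such as ELK1, which sit beside SRF on a CArG box, the SRF binding sequence, and switch on EGR genes and FOS. SRF also works with the actin-sensing cofactors MRTFA and MRTFB, which drive cytoskeletal genes instead. NR4A1 responds to CREB and MEF2 factors as well, and PHLDA1 and IER3 are induced by growth factors and by stress. Most of these transcripts are short-lived.

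RefSeq promoter windows (GRCh38.p14, 250 bases before to 50 after each annotated start) were matched for 7 of the 10 genes, not for EGR3, IER3 and PHLDA2. EGR2 had 3 windows, NR4A1 and SRF 2 each, and the others 1. Genes with several windows have more places to match, so counts of genes and shares of windows are unlike measures. The CArG box was found in windows of EGR1, EGR2 and SRF. It was found in 1.14% of 15243 windows of tested genes and in 1.29% of all 35116 windows, on either strand. The stretches below are shown because these 3 genes carry the same SRF-type letters, while their RNA levels in the data differ widely. Each holds 60 bases upstream of an annotated start, 5′ to 3′, with CArG boxes in capitals.
EGR1, chr5:138465364-138465423, plus strand: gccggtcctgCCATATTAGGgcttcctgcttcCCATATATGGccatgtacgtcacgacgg
EGR2, chr10:62816397-62816456, minus strand: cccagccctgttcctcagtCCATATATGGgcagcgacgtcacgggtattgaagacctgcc
SRF, chr6:43171209-43171268, plus strand: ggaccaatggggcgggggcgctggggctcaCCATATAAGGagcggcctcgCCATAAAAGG
EGR1 and EGR2 share the box CCATATATGG. Counted from the annotated start, with -1 as the last base before it, the EGR1 boxes begin at -105 and -83, that of EGR2 at -71, and those of SRF at -30 and -10.

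The ETS letters CCGGAA, on either strand, were in windows of IER2, IER5, NR4A1, SRF and PHLDA1, against 26.8% of windows of tested genes. IER5 is shown as the example among them, with these letters in capitals.
IER5, chr1:181088600-181088659, plus strand: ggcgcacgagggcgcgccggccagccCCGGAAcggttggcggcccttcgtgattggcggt
The cAMP response half-site TGACG was in windows of EGR1, EGR2, IER2 and SRF (31.4% of windows of tested genes). The EGR letters GCGNGGGCG were in windows of EGR1, EGR2 and SRF (14.7%), including the SRF stretch printed above. No window of the 7 held the AP-1 letters TGANTCA (5.27%). A match is a description of letters and not a measured binding site.

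The 10 genes fell into an abundant set and a set near the detection limit. In TPM, which divides by gene length and so allows genes to be set side by side, IER3 was highest in NC at 344 ± 17.4 (SD, n = 3). PHLDA2 followed at 248 ± 8.23, IER2 at 162 ± 4.19, PHLDA1 at 142 ± 1.14, EGR1 at 84.6 ± 0.603, SRF at 50.2 ± 2.76 and IER5 at 37.6 ± 2.93. In NC, and likewise within sgKCNQ3, the library values of neighbours in this order did not overlap for these 7 genes. IER3 lay above 97.2% of the genes of the table and IER5 above 76.7%.

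EGR2, NR4A1 and EGR3 lay far lower, at 0.787 ± 0.0874, 0.843 ± 0.0551 and 0.490 ± 0.0781 TPM in NC. EGR2 and NR4A1 did not differ beyond their spread. These 3 genes rested on 13 to 31 estimated counts per library, and the other 7 on 1198 to 8390.

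**Figure D1:**
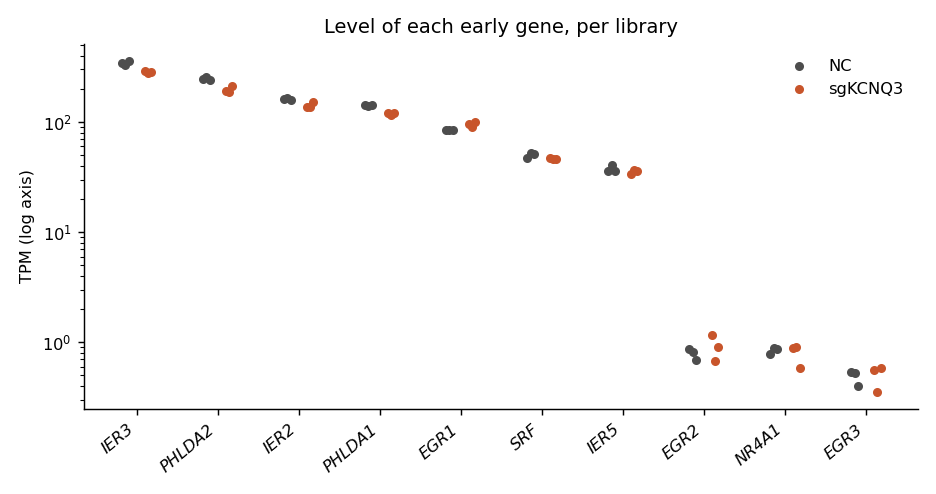
Level of each of the 10 genes in TPM (log axis), 1 point per library, NC in grey and sgKCNQ3 in orange, ordered by mean level. A gap separates IER5, at 33.4 to 41.0 TPM, from EGR2, NR4A1 and EGR3, at 0.35 to 1.16 TPM.

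Of the 10 genes, 6 fell in sgKCNQ3: PHLDA2, PHLDA1, IER3, IER2, SRF and IER5. Among them PHLDA2 fell by 23.8% and IER5, at the other end, fell by 11.8%. None was called higher, and EGR1, the most familiar of the set, lay slightly higher without passing the test. The test was edgeR's quasi-likelihood F test with Benjamini-Hochberg adjustment over 12565 genes and a threshold of 0.05. Over all of these genes 29.1% were called, 15.1% lower and 14% higher, and the median log2 fold change was -0.01. Calls were higher in 48.2% of cases, and this share was 64.5% with library size alone. On log2(TPM + 1) with limma, where measure, scaling and test all differ, it was 81.0%, and the same 6 genes stayed below 0. The median over the 10 early genes was -0.21, and their summed level was 1421 to 1441 CPM in NC and 1183 to 1210 in sgKCNQ3. In bulk RNA, fewer cells with a transcript and less transcript per cell cannot be told apart.

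KCNQ3 itself, the gene named in the guide's label, was at 16.3 ± 0.254 CPM in NC and 12.99 ± 1.0 in sgKCNQ3 (log2 fold change -0.33, edgeR adjusted p 0.00446), so the mRNA was lower in the libraries labelled sgKCNQ3. On log2(TPM + 1) its difference was -0.15 and was not called (limma adjusted p 0.140). KCNQ3 stood at 2.30 TPM in NC and 1.97 in sgKCNQ3. That fit differs in measure, scaling and test, and the added 1 shrinks differences at levels this low. The part of each in the lost KCNQ3 call was not tested. CPM divides by library size times a scaling factor, so CPM totals differ between libraries. The NC libraries had factors from 0.985 to 0.989, while those of the sgKCNQ3 libraries ran from 1.004 to 1.019. A smaller factor gives a larger CPM total, so these totals were higher for NC. Total estimated counts per library were 15601283 to 16089500. Of 7 biliary epithelial markers, all were tested and 4 were called higher, where 14% of all tested genes were. These were KRT8 (log2 fold change 0.28), KRT18 (0.16), SOX9 (0.18) and CD24 (0.68). Keratin 7, the marker KRT7, stood at 1404 CPM in NC and 1440 in sgKCNQ3 and was not called (edgeR adjusted p 0.459). Of 16 markers listed for hepatocytes, fibroblasts, endothelial cells and leukocytes, the fibroblast marker DCN was absent from the deposited genes. Most of the rest were under 1 CPM in both group means, among them ALB, PECAM1, PTPRC and CD3E. Low levels of TF (5.49 CPM in NC and 5.47 in sgKCNQ3), COL1A1 (5.97 and 6.46) and PDGFRB (2.56 and 2.20) were present, above those of EGR2, EGR3 and NR4A1, and none of these 3 markers was called. The leukocyte marker CD68 was called lower, at 90.0 CPM in NC and 74.5 in sgKCNQ3. The summed leukocyte list, 88.0 to 94.7 CPM in NC and 72.5 to 77.7 in sgKCNQ3, was almost wholly CD68. PTPRC stood at 0.0424 CPM in NC and 0.0632 in sgKCNQ3, and LYZ at 0.767 and 0.839. The part of CD68 in the results below was not tested.

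PHLDA1 encodes a pleckstrin homology-like protein linked to growth control and apoptosis, and had the most counts of the set. The gene lies on chromosome 12 (76025447 to 76033932, minus strand, GRCh38 as for the positions that follow). In order of replicate number it held 8371, 8390 and 8272 estimated counts in NC compared with 6748, 6530 and 6668 in sgKCNQ3. All 3 sgKCNQ3 libraries lay well below all 3 NC libraries, and replicates of a group were close to each other. In library-scaled counts this was 534 ± 7.74 against 418 ± 5.17 CPM. Its log2 fold change was -0.35 (SE 0.0349, edgeR adjusted p 4.20e-08).

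PHLDA2 is an imprinted gene best known for restraining placental growth. It lies on chromosome 11 (2928273 to 2929455, minus strand), and held 1579, 1704 and 1555 counts in NC compared with 1212, 1198 and 1337 in sgKCNQ3. The groups did not overlap, with sgKCNQ3 replicate 3 the closest to NC. PHLDA2 had the largest fall of the 6, from 103 ± 4.16 to 78.6 ± 4.41 CPM (a log2 fold change of -0.39, SE 0.0481, edgeR adjusted p 1.18e-06). PHLDA3, the p53-induced relative that restrains AKT, was at 117 ± 8.09 and 107 ± 7.31 CPM and was not called (log2 fold change -0.13, adjusted p 0.0749). It was called without a filter (adjusted p 0.0237) and without sgKCNQ3 replicate 3 (adjusted p 0.0236).

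IER3, an early gene product that modulates apoptosis and ERK signalling, had the highest TPM of the set. Its counts were 3325, 3270 and 3536 in NC compared with 2769, 2698 and 2691 in sgKCNQ3. The groups were far apart for their spread, with means of 216 ± 9.77 and 171 ± 2.79 CPM. IER3 fell by 0.34 on the log2 scale (SE 0.0404, edgeR adjusted p 9.02e-07).

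IER2, the gene of a short-lived nuclear protein, lies on chromosome 19 (13150415 to 13154908, plus strand). It held 3027, 3206 and 2984 counts in NC compared with 2480, 2494 and 2755 in sgKCNQ3. Again sgKCNQ3 replicate 3 was the nearest to NC and the groups stayed separate. The means were 196 ± 5.87 and 162 ± 9.0 CPM, and IER2 fell by 0.28 on the log2 scale (SE 0.0428, edgeR adjusted p 2.77e-05).

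IER5, a nuclear protein that takes part in the heat shock factor pathway, changed less. It lies on chromosome 1 (181088712 to 181092899, plus strand), and held 1457, 1696 and 1457 counts in NC compared with 1296, 1451 and 1382 in sgKCNQ3. The raw counts of the groups nearly meet, and after library scaling they were 93.1 to 107 CPM in NC and 81.4 to 92.0 in sgKCNQ3, just apart. Its log2 fold change was -0.18 (SE 0.0539, edgeR adjusted p 0.0135). IER5 lost its call without NC replicate 2 (log2 fold change -0.11, adjusted p 0.121), without sgKCNQ3 replicate 1 (-0.14, adjusted p 0.106) and on log2(TPM + 1) (-0.09, limma adjusted p 0.331). Its relative IER5L stood at 21.6 ± 1.72 and 23.0 ± 2.71 CPM and was not called (adjusted p 0.442).

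SRF, the factor that binds the CArG boxes shown above, was lower by a similar amount. The gene lies on chromosome 6 (43171299 to 43181507, plus strand), and its counts were 1737, 1950 and 1865 in NC compared with 1673, 1668 and 1628 in sgKCNQ3. In CPM the groups did not overlap, with NC replicate 1 the nearest to sgKCNQ3, and the means were 118 ± 5.33 and 104 ± 2.06. SRF fell by 0.18 on the log2 scale (SE 0.0439, edgeR adjusted p 0.00268). On log2(TPM + 1) the difference was -0.10 and the call was lost (limma adjusted p 0.149).

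EGR1, which couples growth signals to a second set of genes, lay slightly higher in all 3 sgKCNQ3 libraries. It is on chromosome 5 (138465490 to 138469315, plus strand), and held 2517, 2534 and 2498 counts in NC compared with 2733, 2577 and 2812 in sgKCNQ3. After library scaling the NC libraries stood at 160 to 163.2 CPM and the sgKCNQ3 libraries at 163.3 to 176, so the groups touched without overlapping. The log2 fold change was 0.08 (SE 0.0402, 95% interval -0.00 to 0.16, edgeR adjusted p 0.130), so EGR1 was not called. EGR1 was called higher in 4 of the 14 alternatives. These were library size alone (0.12, adjusted p 0.0334), log2(TPM + 1) (0.17, limma adjusted p 0.0258), the test with length and GC trends removed (0.11, adjusted p 0.0239) and the test without sgKCNQ3 replicate 2 (0.12, adjusted p 0.0244). Its value was above 0 in all 14, from 0.06 to 0.17.

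EGR2, EGR3 and NR4A1 could not be resolved at this depth. EGR2, known from myelination and from immune cells, had 24, 23 and 19 counts in NC compared with 31, 18 and 24 in sgKCNQ3. EGR3, its relative from muscle spindles and lymphocytes, had 21, 20 and 17 against 21, 14 and 21. NR4A1, an orphan nuclear receptor also called NUR77, had 19, 23 and 21 against 19, 22 and 13. The groups overlapped for each of the 3 genes.

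The 95% intervals of these log2 fold changes were -0.40 to 0.64 for EGR2, -0.62 to 0.48 for EGR3 and -0.79 to 0.30 for NR4A1. Changes of the size seen in PHLDA2 lie within each of them. Their relatives were as weak: NR4A2 at 1.0 CPM and NR4A3 at 0.746 CPM in NC were not called (edgeR adjusted p 0.841 and 0.509), and EGR4, at 0.640 CPM in NC, was removed by the filter.

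**Figure D2:**
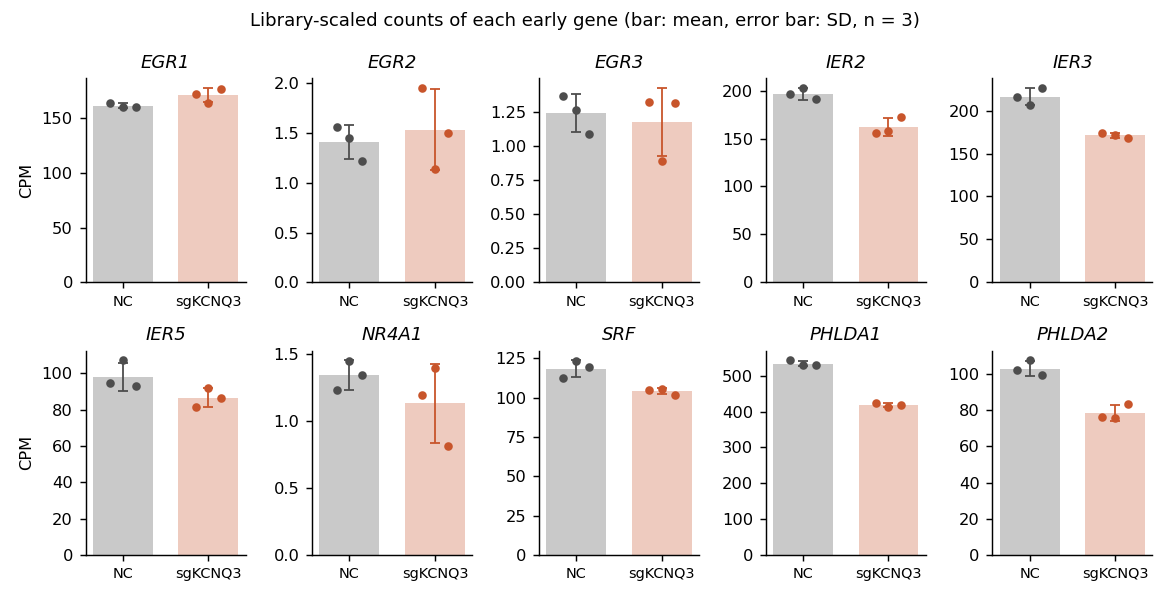
Library-scaled counts (CPM) of each gene, with bars at the mean of 3 libraries, error bars of 1 SD and 1 point per library, NC in grey and sgKCNQ3 in orange, each panel on its own axis from 0. IER2, IER3, IER5, SRF, PHLDA1 and PHLDA2 have separate, lower sgKCNQ3 points, EGR1 has slightly higher ones, and EGR2, EGR3 and NR4A1 overlap near 1 CPM.

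Groups did not overlap for 7 of the 10 genes, 6 of them lower. Over all tested genes the groups did not overlap for 41.7%, with sgKCNQ3 lower for 21.3%.

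**Figure D3:**
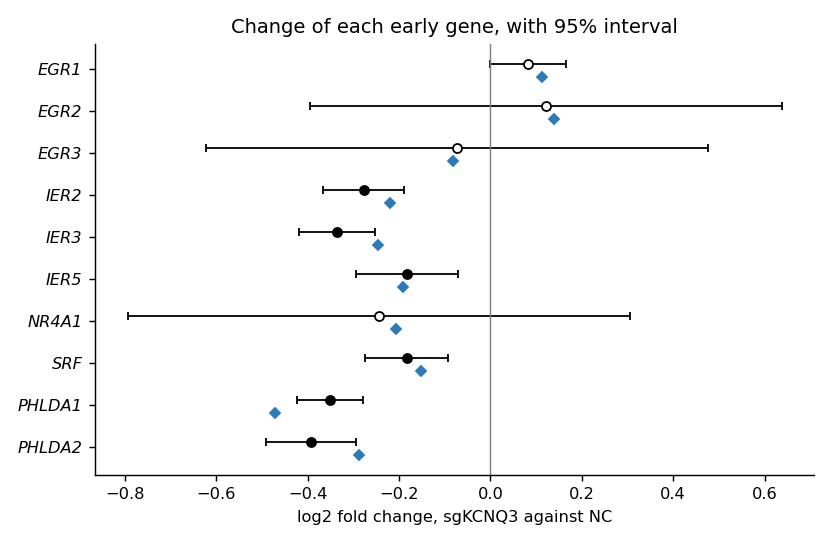
log2 fold change of each gene in sgKCNQ3 against NC, with its 95% interval (circles, filled where the adjusted p was under 0.05), and the value with length and GC trends removed (blue diamonds). The 6 filled circles lie between -0.39 and -0.18, EGR1 lies at 0.08, and the 3 weakly expressed genes have intervals that reach both sides of 0.

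The ratio of EGR1 to another gene within a library needs no library scaling. In NC there were 0.832, 0.790 and 0.837 EGR1 counts per IER2 count, against 1.10, 1.03 and 1.02 in sgKCNQ3. IER2 thus had more counts than EGR1 in every NC library and fewer in every sgKCNQ3 library. The ratio to PHLDA1 was the steadiest, at 0.301, 0.302 and 0.302 in NC compared with 0.405, 0.395 and 0.422 in sgKCNQ3.

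Against each of the 6 called genes the ratio was higher in all 3 sgKCNQ3 libraries than in all 3 NC libraries. The differences in log2 ratio were 0.36 for IER2, 0.42 for IER3, 0.26 for IER5, 0.26 for SRF, 0.43 for PHLDA1 and 0.47 for PHLDA2. The 6 genes were taken because they were called lower, and EGR1 was already higher in all 3 sgKCNQ3 libraries, so the direction and the separation follow from that choice and no test is given. EGR1 is in the numerator of all 6 ratios, so they are not separate observations. The IER5 ratio came closest to meeting, with NC up to 1.73 and sgKCNQ3 from 1.78.

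**Figure D4:**
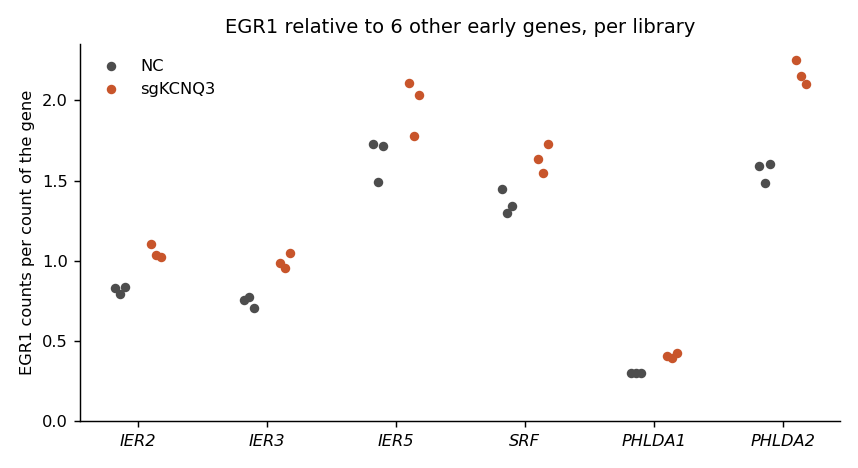
EGR1 counts per count of each of 6 other early genes, 1 point per library, NC in grey and sgKCNQ3 in orange, on a linear axis from 0. The sgKCNQ3 points lie above the NC points for every gene, from 1.02 to 1.10 against 0.790 to 0.837 for IER2.

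Fold change differed with transcript length across the whole table. Tested genes were put in 5 bins of about equal size by length. In the shortest bin (75 to 2012 nt) 22.3% were called lower and 3.43% higher, and in the longest (5877 to 34526 nt) 5.79% lower and 32.1% higher. PHLDA2 (955 nt, 63.1% GC) and IER3 (1350 nt, 58.5% GC) are in the shortest bin, while PHLDA1 (8069 nt, 44.3% GC) is in the longest, and the other 7 genes lie between. Once trends over length and GC content had been taken out of each library, PHLDA1 had a log2 fold change of -0.47, against -0.29 for PHLDA2, -0.25 for IER3, -0.22 for IER2, -0.19 for IER5 and -0.15 for SRF. All 6 remained called in that fit (edgeR adjusted p 4.87e-11 to 0.00869), and PHLDA1 rather than PHLDA2 then had the largest fall.

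Over the 6 libraries the tested gene with the pattern most like each early gene, by Pearson's r of log2 CPM, was another early gene for PHLDA1 (MAFF, r = 0.999) and IER2 (PHLDA2, r = 0.995). For the others it was PLK1 for PHLDA2 (0.997), SNAPC2 for SRF (0.999), ATP9B for IER3 (0.996), MGMT for IER5 (0.993) and SLC25A46 for EGR1 (0.990). These are descriptions over 6 points that share the group difference, and 504 genes reached r above 0.95 with PHLDA1. With group means removed, IER2 and PHLDA2 still had r = 0.981. Both were higher in sgKCNQ3 replicate 3 than in the other sgKCNQ3 libraries. Within NC both were highest in replicate 2 and lowest in replicate 3. Both are GC-rich, IER2 at 61.7% and PHLDA2 at 63.1%, and the part of base composition in this was not tested. For the weakly expressed genes the most alike were AS3MT for EGR2 (0.981), RUNX1 for EGR3 (0.990) and UXS1 for NR4A1 (0.997).

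Of 30 other immediate early genes tested, 21 fell and 3 rose (median log2 fold change -0.19), where 15.1% of all tested genes were called lower and 14% higher. On log2(TPM + 1) only 17 of the 30 were called in either direction. HBEGF, a membrane-anchored EGF receptor ligand, fell from 162 ± 8.58 to 108 ± 3.02 CPM (-0.58 in log2 fold change). The small MAF factor gene MAFF fell by 0.58 on the log2 scale, and PPP1R15A, which restores translation after stress, fell from 501 ± 23.0 to 354 ± 11.1 CPM.

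The 3 that rose were FOS, the AP-1 subunit that is switched on beside EGR1 in the SRF route, the pseudokinase gene TRIB1 and the small GTPase gene GEM. FOS rose from 81.0 ± 2.53 to 98.1 ± 2.65 CPM (0.28 in log2 fold change, edgeR adjusted p 4.93e-05), and was called in all 14 alternatives, between 0.25 and 0.36. TRIB1 rose by 0.36 on the log2 scale (edgeR adjusted p 1.54e-05). GEM was at the edge (0.16, adjusted p 0.0487) and lost its call in 8 of 14 alternatives, among them each of 5 that left out a library (adjusted p 0.0843 to 0.151).

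Among SRF cofactors, MRTFB rose from 20.8 ± 1.27 to 26.3 ± 0.554 CPM (log2 fold change 0.34, edgeR adjusted p 6.26e-04). The other 4 tested, ELK1, ELK3, ELK4 and MRTFA, were not called, beside a share of 29.1% called over all tested genes. With length and GC trends removed 4 of the 5 were called: MRTFB and MRTFA (0.13) higher, ELK3 (-0.11) and ELK4 (-0.20) lower. Genes listed as targets of SRF and MRTF factors, not all of them cytoskeletal, moved both ways, with 9 of 17 tested called lower and 3 higher (median -0.13). The shares over all tested genes were 15.1% lower and 14% higher. The matricellular gene CCN1 (log2 fold change -0.40), the LIM protein gene FHL2 (-0.44) and the cytoplasmic actin gene ACTG1 (-0.25) fell. The myosin light chain gene MYL9 (0.32), FHL1 (0.18) and the vinculin gene VCL (0.11) rose. The VCL call ended with length and GC trends removed (0.03, adjusted p 0.507), without NC replicate 1 (adjusted p 0.0557) and without NC replicate 3 (0.0767), and that of FHL1 without sgKCNQ3 replicate 1 (adjusted p 0.0554).

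Of 166 tested genes with a CArG box in a promoter window, 37 (22.3%) were called lower and 22 (13.3%) higher, with a median log2 fold change of -0.04. Of the 10354 tested genes with any window, 15.3% were called lower and 13.6% higher. The share called lower was also above this for every other motif searched. It was 18% for the AP-1 letters, 17.2% for ETS, 17.1% for the cAMP response half-site, 16.7% for EGR and 16.2% for the TATA letters TATAAA.

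The corepressors that hold EGR factors in check are NAB1 and NAB2. NAB1 rose from 11.4 ± 0.792 to 14.9 ± 0.788 CPM (0.39 in log2 fold change, SE 0.0885, edgeR adjusted p 0.00187), and was called in all 14 alternatives. NAB2, itself an EGR1 target, was at 17.4 ± 1.37 and 16.5 ± 1.31 CPM and was not called (adjusted p 0.534). Of 7 genes listed as EGR1 targets, all tested, 3 fell and none was called higher (median -0.15), while EGR1 itself was not lower. The share called lower over all tested genes was 15.1%. The platelet-derived growth factor gene PDGFB fell from 99.7 ± 2.51 to 79.4 ± 2.43 CPM (-0.33), and the tissue factor gene F3 (-0.34) fell too. F3 lost its call with DESeq2 (adjusted p 0.119), without NC replicate 1 (0.0662) and without sgKCNQ3 replicate 1 (0.0637).

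Of 12 CREB and MEF2 factors and partners, 2 rose, 1 fell and 9 were not called (median 0.09), a share of calls no higher than the 29.1% over all tested genes. RXRA, a retinoid receptor that pairs with NR4A1, rose from 43.1 ± 0.706 to 52.3 ± 1.84 CPM (0.28), and the CREB coactivator gene CRTC3 rose by 0.18. MEF2D fell from 102 ± 2.75 to 87.8 ± 1.87 CPM (-0.21), and lost its call on log2(TPM + 1) (limma adjusted p 0.113). CRTC3 lost its call in 6 of the 14 alternatives, among them DESeq2 (adjusted p 0.0851), the test with length and GC trends removed (0.0544), and those without NC replicate 2 (0.0843), NC replicate 3 (0.106), sgKCNQ3 replicate 1 (0.0645) and sgKCNQ3 replicate 3 (0.0910).

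Among 6 factors that set the decay of early transcripts, ZFP36L1, which promotes decay of AU-rich mRNA, fell (-0.19) and the decay factor gene KHSRP rose (0.11). The other 4 were not called, beside a share of 29.1% called over all tested genes. ZFP36, the best known of them, was at 23.4 ± 0.536 and 21.6 ± 2.18 CPM and was not called. ZFP36L1 lost its call on log2(TPM + 1) (limma adjusted p 0.121). KHSRP lost its call without NC replicate 2 (adjusted p 0.0803), NC replicate 3 (0.0736), sgKCNQ3 replicate 1 (0.0765) and sgKCNQ3 replicate 3 (0.0516).

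**Figure D5:**
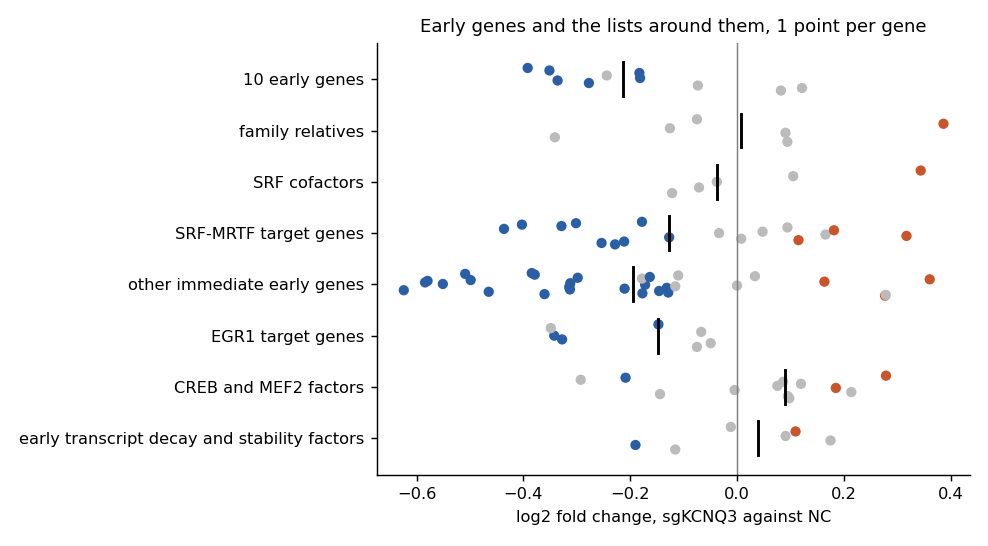
log2 fold change in sgKCNQ3 against NC of the tested genes of each list, 1 point per gene, blue where called lower, orange where called higher and grey where not called, with a black bar at the median. The medians of the 10 early genes (-0.21) and of the other immediate early genes (-0.19) lie to the left of 0, with FOS and TRIB1 among the orange points of the latter.

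In GENCODE release 29 (GRCh38), 5 of the 10 genes overlap a transcript of the opposite strand: EGR3, IER2, IER3, NR4A1 and PHLDA1. The sources used here do not say whether counting used strand, so reads of these partners could be counted with them. IER3 (chromosome 6, 30743199 to 30744554, minus strand) lies in the major histocompatibility region, which has alternative haplotypes in GRCh38, and their handling is not given either.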

How the data were processed

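RNA abundance was measured in 6 libraries of RBE cells, assigned to NC and sgKCNQ3 (3 each) by their titles. The authors deposited unnormalized estimated counts (expected counts), of which 5.53% to 6.33% in a library were fractional, and TPM values, which have the same total in every library. Per the submitters' processing notes the build was GRCh38.p13. Neither aligner nor counter is named in the sources used here. A further 12 columns of single libraries and 8 of group means were not used.

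Counts were rounded, filtered with filterByExpr (minimum count 10, leaving 12565 genes), scaled with TMM factors and tested with robust quasi-likelihood F tests in edgeR 4.0.16 (R 4.3.3). The SE is the log2 fold change divided by the square root of F, and CPM uses the scaled library sizes. The procedure was tested on simulated counts with the same dispersion for every gene and no length or GC trend. That test therefore does not bear on such trends.

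The 10 genes, the lists and the named genes were chosen with earlier results of these data known. Named genes were the 10, KCNQ3, family relatives, up to 3 called genes per list and direction by smallest p, and the most alike gene of each. A gene that this rule takes is not reported here. Genes named outside this rule (ELK1, ELK3, ELK4, MRTFA, ZFP36 and markers) were picked after their values were seen. Alternatives were RLE and no scaling factors, DESeq2 1.42.0, limma-trend (limma 3.58.1) on log2(TPM + 1), no filter, at least 2 CPM in 3 libraries, the replicate block, each library left out, and removal of each library's trend over the length and GC content (natural splines, 5 degrees of freedom) of the longest coding transcript in GENCODE release 29, matched for 16062 of 16200 genes. The EGR1 ratios and their alternatives (ratio of TPM, each library left out) were added after the data were seen. Figures were drawn with matplotlib 3.10.9.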

Additional observations from a re-analysis of the deposited data

How the results depend on the processing

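The calls of PHLDA1, PHLDA2, IER3 and IER2 held in all 14 alternatives, and SRF lost its call in 1 and IER5 in 3. The number of the 10 genes called lower was 4 on log2(TPM + 1), 6 in the other alternatives that used all libraries, and 5 to 6 when a library was left out. The number called higher was 0, and 1 (EGR1) with library size alone, on log2(TPM + 1) and with length and GC trends removed, and 0 to 1 when a library was left out. KCNQ3 was not called on log2(TPM + 1) (-0.15), and with a library left out lay between -0.38 and -0.27. Values near 0 changed sign: EGR3 (0.00721) and NAB2 (0.0179) on log2(TPM + 1), EGR2 (-0.09) and NR4A2 (-0.08) without sgKCNQ3 replicate 1, NR4A2 (-0.10) without NC replicate 1, and EGR3 (0.10) without sgKCNQ3 replicate 2. With a library left out EGR2 ranged from -0.0853 to 0.30, EGR3 from -0.16 to 0.0978 and NR4A2 from -0.0961 to 0.26. NR4A1 moved from -0.24 to -0.41 without sgKCNQ3 replicate 2 and to -0.05 without sgKCNQ3 replicate 3 or on log2(TPM + 1). The fit on log2(TPM + 1) differs in measure, scaling and test, and the added 1 shrinks differences at low TPM. Before the 1 was added, EGR3 stood at 0.49 TPM in NC and 0.50 in sgKCNQ3, and NR4A1 at 0.843 and 0.787. The part of each difference in the values of KCNQ3, EGR3 and NR4A1 was not tested. PHLDA3 moved from -0.13 to -0.07 without NC replicate 2, without sgKCNQ3 replicate 2 or with length and GC trends removed, and to -0.04 on log2(TPM + 1). Of the list counts, SRF cofactors went from 1 to 4 with length and GC trends removed, family relatives from 1 to 2 without a filter, and transcript decay factors from 2 to 4 with library size alone. With a library left out these lists had 1 to 2, 1 to 2 and 1 to 3 called. The cause of each change was not tested. Of 27 named genes of the lists, 15 kept direction and call in every alternative. The EGR1 ratios moved by less than the spread between replicates in TPM and with any library left out.

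Replicate numbers are shared by the groups, but same-numbered libraries did not deviate together (r = 0.01, -0.10 and 0.01 for numbers 1 to 3), and no library correlated best with its own number. The replicate block called 6 of the 10 genes lower and 3136 genes in all, against 3658 without it. DESeq2 called 2448 genes. The median log2 fold change of tested genes moved to 0.03 with library size alone and 0.06 on log2(TPM + 1), and the share of higher genes among calls from 48.2% to 64.5% and 81.0%, and to 39.7% with length and GC trends removed. Depth limits EGR2, EGR3 and NR4A1, which rest on at most 31 counts per library.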
